A study of Arabidopsis thaliana with 12 samples.

Results

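The circadian clock of *Arabidopsis* seedlings is described here through 10 of the 32824 genes in the deposited tables: *LHY* (AT1G01060), *CCA1* (AT2G46830), *RVE8* (AT3G09600), *PRR9* (AT2G46790), *PRR7* (AT5G02810), *PRR5* (AT5G24470), *TOC1* (AT5G61380), *GI* (AT1G22770), *ELF4* (AT2G40080) and *LUX* (AT3G46640). They were chosen by gene identifier, as the best known components of the plant clock. The rule uses no measured value, but it was set with earlier results of these data known. Morning and evening genes are compared here between light conditions and genotypes. RNA was sequenced from seedlings of the Col-0 wild type, of *rev-5*, which carries a mutation in the gene for the transcription factor REVOLUTA, and of *wox4*, a T-DNA insertion line in the gene for a WUSCHEL-related homeobox factor. All seedlings grew in white light (WL) for 2 days. Some then stayed in WL for 8 days and others received supplementary far-red (WL+FR), and all were 10 days old at harvest. The paper states continuous light for its hypocotyl and histology assays, and its RNA methods do not repeat this. The red to far-red ratio was 7.7 in WL and 0.2 in WL+FR, a simulated shade. There were 6 groups, 1 for every genotype in either light, of 2 libraries each, which the study describes as biological replicates. The hour of harvest is not given in the sources used here, nor whether all groups were harvested at the same hour. A shift of phase, a change of level and a difference in the hour of harvest can therefore not be told apart. Whether the seedlings of a group shared a phase was not measured. *WOX4* itself stood at 112 to 149 TPM (a transcript's share of its library, corrected for length) in the libraries labelled *wox4* and at 1.58 to 3.93 TPM in the other 8, which goes against the label if the mutant is read as lacking this transcript, and these libraries are called by their label throughout.

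The plant clock is a network of transcription factors that repress each other in turn over the day. Around dawn the MYB-like factors CCA1 and LHY repress the evening genes, the pseudo-response regulators PRR9, PRR7, PRR5 and TOC1 then follow each other and repress *CCA1* and *LHY*, and around dusk the evening complex of ELF3, ELF4 and LUX represses *PRR9* and other daytime genes. RVE8, a relative of CCA1, instead activates evening genes, and GI stabilises the F-box protein ZTL, which targets TOC1 for breakdown. Transcripts of *LHY*, *CCA1*, *RVE8* and *PRR9* are known to peak in the morning, those of *PRR7* and *PRR5* around midday and in the afternoon, and those of *GI*, *TOC1*, *ELF4* and *LUX* towards evening, and the genes are grouped here in that way.

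The 300 bases upstream of the annotated start are shown for the 4 clock genes that passed the test when *rev-5* was set against Col-0 in WL, the comparison in which morning and evening genes lay on opposite sides. They were read from the TAIR10.1 assembly of RefSeq, in which all 10 genes have the same start and end as in the deposited tables, and run 5′ to 3′ along the gene's own strand. The windows are chr1:37872-38171 on the minus strand for *LHY*, chr3:2945939-2946238 on the plus strand for *RVE8*, chr5:24674663-24674962 on the plus strand for *TOC1* and chr3:17182742-17183041 on the plus strand for *LUX*. Capitals mark matches to 2 motifs, the evening element AAAATATCT, which appears as its reverse complement in *TOC1*, and the G-box CACGTG.
LHY: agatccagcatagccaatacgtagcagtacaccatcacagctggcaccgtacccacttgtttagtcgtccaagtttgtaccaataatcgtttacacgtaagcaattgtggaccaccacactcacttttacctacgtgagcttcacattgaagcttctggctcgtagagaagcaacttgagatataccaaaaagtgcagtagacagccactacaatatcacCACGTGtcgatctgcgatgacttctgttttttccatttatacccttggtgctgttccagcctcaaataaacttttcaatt
RVE8: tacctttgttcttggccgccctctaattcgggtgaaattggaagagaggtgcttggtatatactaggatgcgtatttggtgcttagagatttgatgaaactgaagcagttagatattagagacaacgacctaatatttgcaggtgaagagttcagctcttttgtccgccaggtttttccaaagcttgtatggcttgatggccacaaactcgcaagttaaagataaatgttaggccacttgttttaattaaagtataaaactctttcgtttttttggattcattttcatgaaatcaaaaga
TOC1: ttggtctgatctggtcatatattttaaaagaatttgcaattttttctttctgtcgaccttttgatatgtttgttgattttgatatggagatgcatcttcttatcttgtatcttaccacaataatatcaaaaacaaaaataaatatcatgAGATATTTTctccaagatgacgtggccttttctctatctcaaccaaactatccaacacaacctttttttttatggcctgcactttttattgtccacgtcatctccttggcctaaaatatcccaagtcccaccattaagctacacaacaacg
LUX: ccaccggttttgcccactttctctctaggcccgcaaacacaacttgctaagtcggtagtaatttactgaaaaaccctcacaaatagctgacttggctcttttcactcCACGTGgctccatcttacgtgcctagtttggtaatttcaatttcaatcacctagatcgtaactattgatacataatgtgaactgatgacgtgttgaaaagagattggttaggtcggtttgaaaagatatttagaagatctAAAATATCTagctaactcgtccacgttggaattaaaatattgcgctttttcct
The evening element, a binding motif of CCA1, LHY and RVE8, was found on either strand in *PRR5*, *TOC1* and *LUX* among the 10 windows, and in 2.79% of 27443 windows of protein-coding genes. The G-box, a motif of bHLH and bZIP factors, was found in *LHY*, *CCA1*, *PRR9*, *PRR7* and *LUX*, and in 7.09% of all windows. In *LUX* the evening element began 53 bases and the G-box 193 bases upstream of the annotated start. The shorter CCA1-binding site AAAAATCT was found in *PRR5* (7.94% of all windows), the LUX-binding form GATTCG in *PRR9* (9.34%) and the form GATACG in *ELF4* (5.51%). *RVE8* held none of these 5 motifs in its window. A match describes the letters of the window and was not tested as a binding site.

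The deposited values are FPKM (mapped fragments scaled by transcript length and library depth), which were rescaled to TPM so that each library sums to the same total and genes can be compared per length. If the bounds deposited with each value hold counting error only, the 10 genes rested on 54 fragments (lowest library of *PRR9*) to 1965 fragments (highest library of *TOC1*) in a library. Differences were tested in limma on log2(TPM + 1) over 20020 genes whose mean reached 0.5 TPM, and a gene was called at an adjusted p (Benjamini-Hochberg) under 0.05. All 10 clock genes were above this level in every library, so none entered through a high group. The 10 most abundant genes took 17.57% to 18.65% of all FPKM in WL and 12.9% to 14.33% in WL+FR. *LUX* overlaps AT3G46650 on the opposite strand by 1507 bases, and this gene was listed at 0 in all 12 libraries. In RNA of seedlings, fewer cells with a transcript and less transcript per cell cannot be told apart.

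Among the clock genes, *ELF4*, a small protein of the evening complex, was the most abundant transcript in every group. In Col-0 in WL it stood at 368 and 383 TPM, followed by *LUX* at 85.2 and 84.1 TPM and *TOC1* at 73.6 and 75.9 TPM. *PRR7* came next at 38.8 and 36.2 TPM, and *LHY* and *CCA1*, the closely related morning repressors, were indistinguishable at 30.4 and 28.7 TPM and 30.2 and 27.7 TPM. *PRR5* at 19.8 and 20.4 TPM lay just above *GI* at 19.7 and 18.6 TPM, with adjoining replicates. *RVE8* at 10.5 and 11.3 TPM and *PRR9* at 3.38 and 3.74 TPM were the lowest. Evening transcripts other than *GI* were thus more abundant than morning transcripts in these seedlings. Over all 12 libraries the range of a clock gene was modest, from a ratio of highest to lowest of 1.32 for *TOC1* to 2.06 for *GI*.

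**Figure D1:**
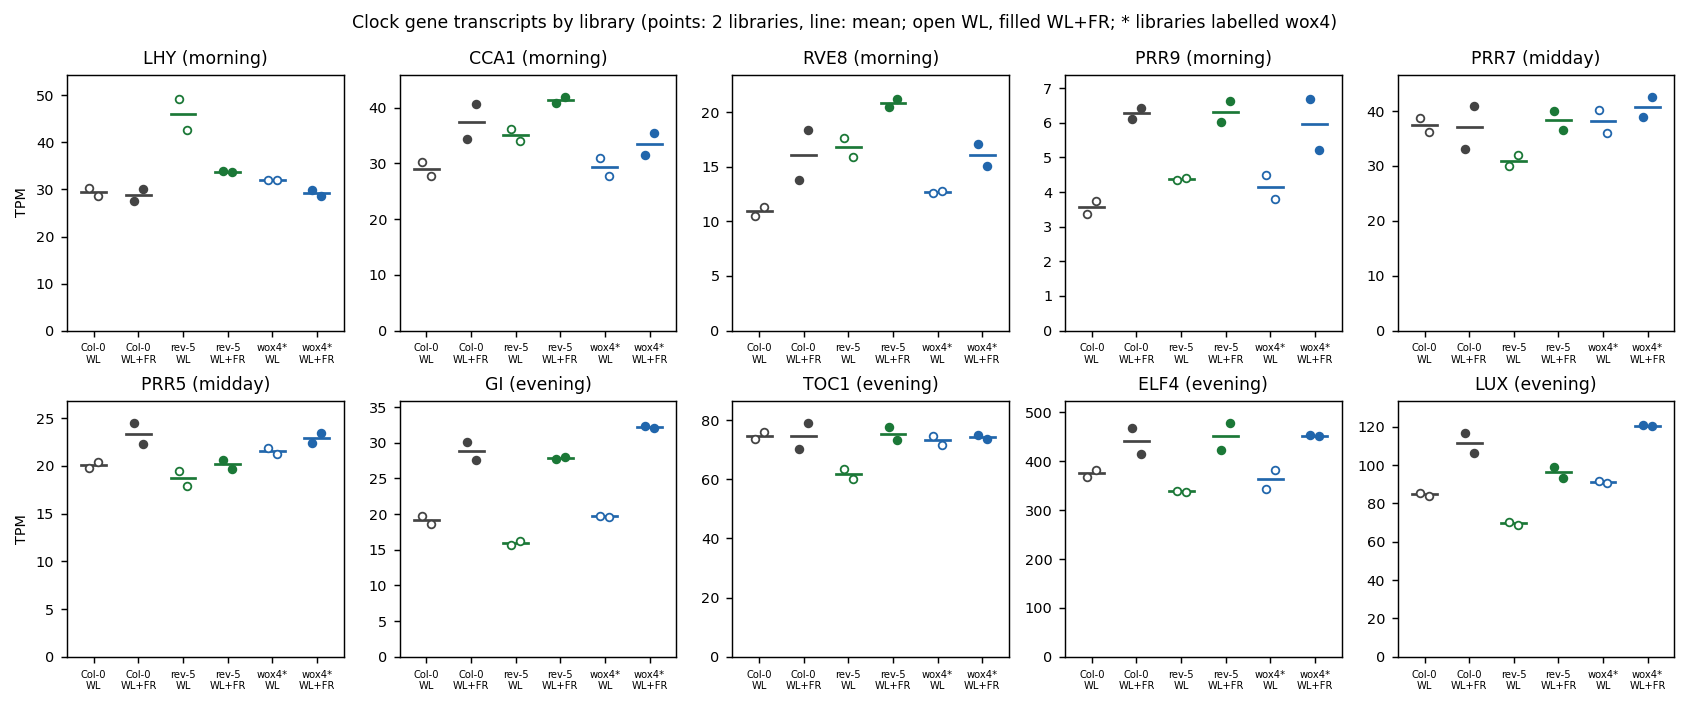
TPM of the 10 clock genes in each of the 12 libraries, with open points for WL, filled points for WL+FR, and a line at the mean of the 2 libraries of a group. *LHY* is highest in the *rev-5* libraries in WL (49.3 and 42.7 TPM), while *GI* and *LUX* are higher in WL+FR than in WL in every genotype.

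In WL, 2 morning genes were higher and 2 evening genes lower in *rev-5* seedlings than in Col-0. *LHY* and *RVE8* rose (2.61% of all tested genes did) and *TOC1* and *LUX* fell (2.06%), 4 of 10 clock genes called against 4.67% of all tested genes. *LHY*, the MYB-like repressor active around dawn, stood at 49.3 and 42.7 TPM in *rev-5* and at 30.4 and 28.7 TPM in Col-0. The *rev-5* libraries in WL were the highest of all 12 for this gene, and the log2 fold change was 0.62 ± 0.08 (SE, n = 2 per group, limma adjusted p = 0.00223). *RVE8*, the activator of evening genes, stood at 17.6 and 15.9 TPM in *rev-5* and 10.5 and 11.3 TPM in Col-0. Its replicates did not overlap, with a log2 fold change of 0.58 ± 0.13 (SE, limma adjusted p = 0.0327).

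On the evening side, *TOC1*, the pseudo-response regulator that represses *CCA1* and *LHY*, stood at 63.3 and 59.9 TPM in *rev-5* and 73.6 and 75.9 TPM in Col-0 in WL. The *rev-5* libraries were the lowest of all 12, and the log2 fold change was -0.28 ± 0.06 (SE, limma adjusted p = 0.0416). *LUX*, the DNA-binding member of the evening complex, stood at 70.5 and 69.0 TPM in *rev-5* and 85.2 and 84.1 TPM in Col-0. These too were the lowest values of all 12 libraries, with a log2 fold change of -0.28 ± 0.05 (SE, limma adjusted p = 0.0173). *TOC1* and *LUX*, the evening genes that passed the test, both hold an evening element in their windows. *PRR5*, which holds the same motif, had -0.10 and did not pass. *PRR7* (-0.27) and *GI* (-0.25), without this motif in their windows, had log2 fold changes near those of *TOC1* and *LUX* and did not pass either. A link between the motif and the change was not tested.

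The other morning and evening genes lay on the same sides without passing the test. *CCA1* stood at 36.2 and 34.0 TPM in *rev-5* and 30.2 and 27.7 TPM in Col-0 (log2 fold change 0.27, limma adjusted p = 0.175), and *PRR9*, the earliest of the pseudo-response regulators, at 4.36 and 4.41 TPM and 3.38 and 3.74 TPM (0.24, adjusted p = 0.406). *GI*, at 15.7 and 16.2 TPM in *rev-5* and 19.7 and 18.6 TPM in Col-0, came close to the threshold (-0.25, adjusted p = 0.0689). *ELF4* stood at 339 and 338 TPM against 368 and 383 TPM (-0.15, adjusted p = 0.317), and the midday genes *PRR7* and *PRR5* had log2 fold changes of -0.27 (adjusted p = 0.21) and -0.10 (adjusted p = 0.543). All 4 morning genes were thus above Col-0 and all 4 evening genes below it, signs that held under each of the 19 alternative settings. The replicates of all 10 genes did not overlap between the genotypes, where those of 47.3% of all tested genes did not, and 7 of 10 had an unadjusted p under 0.05, against 18.6% of all genes. The median log2 fold change was 0.42 over the 4 morning genes, -0.26 over the 4 evening genes and 0.00 over all tested genes.

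**Figure D2:**
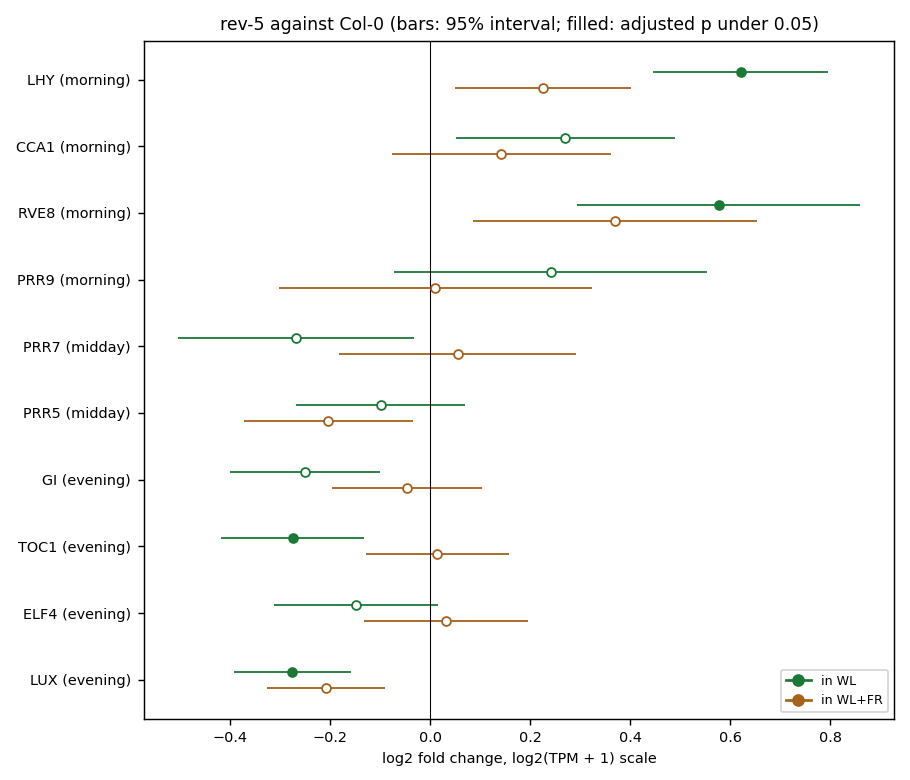
Log2 fold change of *rev-5* against Col-0 on the log2(TPM + 1) scale for the 10 clock genes, with bars for the 95% interval and filled points for an adjusted p under 0.05. In WL the 4 morning genes lie between 0.24 and 0.62 and the 4 evening genes between -0.28 and -0.15, while in WL+FR no gene passes the test.

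Of these calls, *LHY* was the most stable. Without Col-0 WL replicate 1 or 2, or without *rev-5* WL replicate 9 or 10, only *LHY* was called. Without any of the libraries labelled *wox4* (replicates 5, 6, 7 and 8) or of the *rev-5* libraries in WL+FR (replicates 11 and 12), *LHY* and *LUX* were called, and a fit of the 4 libraries alone called none (*LHY* adjusted p = 0.127). Marker sums also differed between these groups. For 6 root markers the summed TPM reached 228.64 to 229.29 in *rev-5* against 157.84 to 164.83 in Col-0, that of 4 xylem markers 107.13 to 115.74 against 78.95 to 89.92, and that of 5 green shoot markers 17387.38 to 17569.34 against 15573.41 to 15988.24. The root sum was carried by *IRT1* (mean 53.5 against 21.0 TPM) and *TIP2;3* (136 against 96.7 TPM), with the means of *SHR*, *PHO1*, *WOX5* and *PLT1* slightly lower in *rev-5*, and the xylem sum by *XCP1* and *XCP2*, with *IRX3* lower (4.99 against 5.6 TPM). All of these markers were above 0 in every library, and their part in the clock gene differences was not tested. The sums of 3 seed storage and 3 flower markers were at most 0.59 in any library, and the flower marker *AG* was at 0 in all.

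The balance of morning and evening genes can be put in a single value per library, the mean log2(TPM + 1) of *LHY*, *CCA1*, *RVE8* and *PRR9* minus that of *GI*, *TOC1*, *ELF4* and *LUX*. It was -1.78 and -1.87 in *rev-5* in WL, the highest of all 12 libraries, and -2.49 in each Col-0 library in WL. In WL+FR it was -2.19 and -2.15 in *rev-5* and -2.54 and -2.28 in Col-0, so that the *rev-5* libraries were again the higher pair with a smaller gap. The libraries labelled *wox4* lay at -2.33 and -2.43 in WL and at -2.49 and -2.57 in WL+FR, close to Col-0. The ratio of *LHY* to *TOC1* in TPM, both called above, was 0.779 and 0.713 in *rev-5* in WL and between 0.378 and 0.462 in the other 10 libraries. That of *CCA1* to *TOC1* did not set the *rev-5* libraries in WL apart. It was 0.572 and 0.567 there, 0.526 and 0.572 in *rev-5* in WL+FR, and 0.487 and 0.513 in Col-0 in WL+FR. In Col-0 in WL this ratio was 0.411 and 0.365. These values describe the libraries and carry no test.

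**Figure D3:**
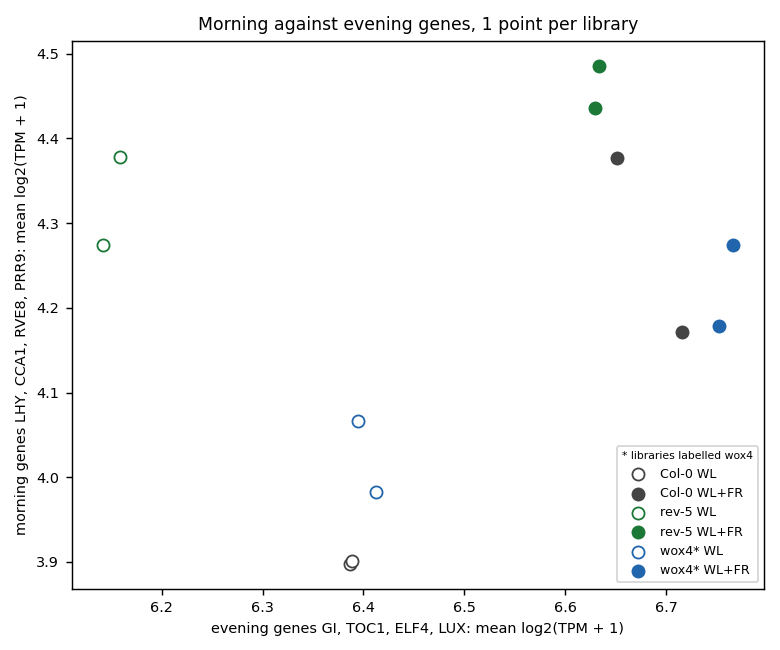
Mean log2(TPM + 1) of the 4 morning genes against that of the 4 evening genes, 1 point per library, open for WL and filled for WL+FR. The 2 *rev-5* libraries in WL lie apart at the upper left, with evening means of 6.14 and 6.16, and the WL+FR libraries of every genotype lie to the right of the WL libraries.

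In WL+FR none of the 10 clock genes was called between *rev-5* and Col-0 in limma, where 3.54% of all tested genes were, and 4 had an unadjusted p under 0.05, against 17.0% of all genes. The replicates of 5 did not overlap, against 47.0% of all genes. *LUX* stood at 99.1 and 93.3 TPM in *rev-5* and 117 and 106 TPM in Col-0, a log2 fold change of -0.21 (limma adjusted p = 0.0666). *RVE8* stood at 20.5 and 21.2 TPM against 13.8 and 18.4 TPM (0.37, adjusted p = 0.166). The Col-0 libraries in WL+FR disagreed on *RVE8* by more than those of any other group did, and without Col-0 WL+FR replicate 4 both *LUX* and *RVE8* were called. *LHY*, at 33.8 and 33.8 TPM in *rev-5* and 27.5 and 30.1 TPM in Col-0, had a log2 fold change of 0.23 (adjusted p = 0.173), with no overlap of the replicates. *TOC1* differed by 0.01 (95% interval -0.13 to 0.16) and *GI* by -0.05 (-0.20 to 0.10).

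Whether the genotype difference itself changed with light was tested as the shade response of *rev-5* minus that of Col-0. None of the 10 clock genes passed in limma, where 0.395% of all tested genes did, and 2 had an unadjusted p under 0.05, against 9.19% of all genes. *LHY* had the largest difference, -0.39 (95% interval -0.64 to -0.15, adjusted p = 0.275), and *TOC1* had 0.29 (0.09 to 0.49, adjusted p = 0.34). All 4 morning genes had a negative difference and all 4 evening genes a positive one. The same signs were found for the libraries labelled *wox4* minus Col-0, a comparison that shares the Col-0 libraries. The narrower gap of the genotypes in WL+FR was therefore not shown gene by gene.

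Shade raised clock transcripts in Col-0 on both sides of the day. *CCA1*, *RVE8* and *PRR9* among the morning genes and *GI* and *LUX* among the evening genes were higher in WL+FR than in WL, 5 of 10, where 13.3% of all tested genes were called higher and 17.7% called in either direction. None was called lower, against 4.41% of all genes, and the replicates of 7 did not overlap, against 55.9%. *GI*, which links the clock to flowering and protein turnover, stood at 30.1 and 27.6 TPM in WL+FR and 19.7 and 18.6 TPM in WL (log2 fold change 0.56 ± 0.07, SE, limma adjusted p = 0.000365). *LUX* stood at 117 and 106 TPM in WL+FR and 85.2 and 84.1 TPM in WL (0.39 ± 0.05, adjusted p = 0.000773). Neither gene's replicates overlapped between the lights.

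*PRR9* had the largest log2 fold change in Col-0, 0.67 ± 0.14 (SE, limma adjusted p = 0.00883), from 3.38 and 3.74 TPM in WL to 6.10 and 6.44 TPM in WL+FR. *RVE8* rose from 10.5 and 11.3 TPM to 13.8 and 18.4 TPM (0.50 ± 0.13, adjusted p = 0.0219), and *CCA1* from 30.2 and 27.7 TPM to 34.3 and 40.6 TPM (0.36 ± 0.10, adjusted p = 0.0329). *LHY*, the close relative of *CCA1*, overlapped between the lights at 27.5 and 30.1 TPM in WL+FR against 30.4 and 28.7 TPM in WL (-0.04, 95% interval -0.21 to 0.14). *TOC1* (interval -0.15 to 0.14) and *PRR7* (-0.03, interval -0.26 to 0.21) overlapped as well. *ELF4* (0.23, adjusted p = 0.0588) and *PRR5* (0.21, adjusted p = 0.0919) had separate replicates without passing the test. *CCA1* and *LHY*, whose levels were alike in WL, thus had unlike estimates in WL+FR, a difference between genes that was not tested.

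Only the *GI* and *LUX* calls held under all 19 alternatives. Without Col-0 WL replicate 1 these 2 were the only ones called, without Col-0 WL replicate 2 *GI*, *LUX* and *PRR9*, and without Col-0 WL+FR replicate 4 *GI*, *LUX* and *ELF4*. The median log2 fold change of the clock genes was 0.29 and that of all tested genes 0.08, and quantile normalization brought the latter to -0.02 and moved the calls over all genes from 2655 higher and 882 lower to 1600 higher and 1503 lower. *GI*, *PRR9* and *LUX* were still called higher in Col-0 under this normalization. Root marker sums were higher in WL+FR as well, from 157.84 to 164.83 TPM in WL to 247.51 to 274.68 TPM in WL+FR in Col-0, and xylem marker sums from 78.95 to 89.92 TPM to 142.62 to 163.02 TPM, and their part in the clock gene differences was not tested. Most of the root difference was *TIP2;3* (mean 96.7 TPM in WL and 174 TPM in WL+FR), while *PHO1* had 18.7 and 20.8 TPM and *WOX5* was lower (1.63 and 0.82 TPM). *ATHB2*, a standard shade marker, rose by 2.09 in log2 (limma adjusted p = 5.47e-06).

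**Figure D4:**
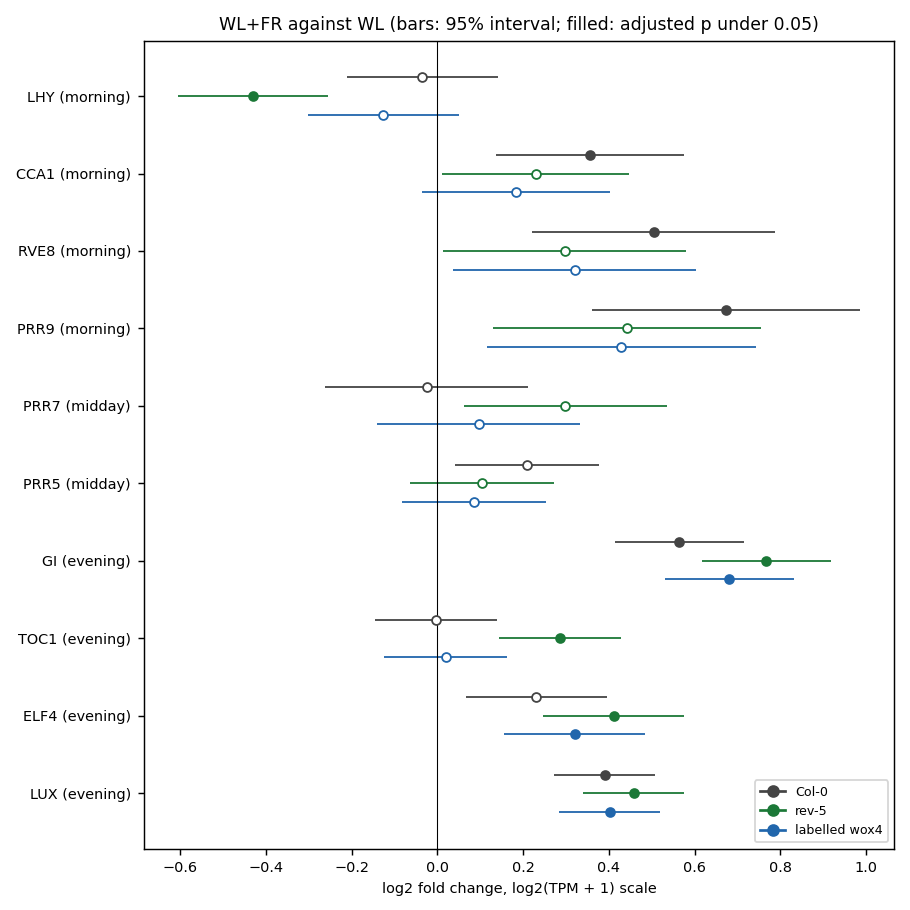
Log2 fold change of WL+FR against WL on the log2(TPM + 1) scale for the 10 clock genes in each genotype, with bars for the 95% interval and filled points for an adjusted p under 0.05. *GI* (0.56 to 0.77) and *LUX* (0.39 to 0.46) are higher in every genotype, and *LHY* passes the test, as lower, in *rev-5* (-0.43).

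In *rev-5*, shade raised the 4 evening genes and lowered *LHY*, 5 of 10 called, where 13.9% of all tested genes were (11% higher and 2.83% lower). *GI* rose from 15.7 and 16.2 TPM in WL to 27.7 and 28 TPM in WL+FR (log2 fold change 0.77 ± 0.07, SE, limma adjusted p = 7.73e-05), and *LUX* from 70.5 and 69.0 TPM to 99.1 and 93.3 TPM (0.46 ± 0.05, adjusted p = 0.000413). *ELF4* rose from 339 and 338 TPM to 424 and 478 TPM (0.41, adjusted p = 0.0054), and *TOC1* from 63.3 and 59.9 TPM to 77.6 and 73.1 TPM (0.29, adjusted p = 0.0165). The call of *TOC1* held under 14 of the 19 alternatives and that of *ELF4* under 17. *TOC1* lost its call under quantile normalization and without a trend in the spread. For *TOC1* the WL+FR level in *rev-5* lay within the range of the Col-0 libraries. *LHY* fell from 49.3 and 42.7 TPM to 33.8 and 33.8 TPM, a log2 fold change of -0.43 ± 0.08 (SE, limma adjusted p = 0.00594). *CCA1* (0.23), *RVE8* (0.30) and *PRR9* (0.44) did not pass, with adjusted p of 0.166, 0.164 and 0.0669, nor did *PRR7* (0.30, adjusted p = 0.0986) and *PRR5* (0.10, adjusted p = 0.424). The replicates of all 10 genes were apart between the lights, as for 55.1% of all tested genes. Leaving out 1 library at a time left 4 to 6 calls, with *GI*, *LUX* and *LHY* in each, and a fit of the *rev-5* libraries alone called *GI* and *LUX*. In *rev-5* the root marker sum went from 228.64 to 229.29 TPM in WL to 309.55 to 315.95 TPM in WL+FR and the xylem sum from 107.13 to 115.74 TPM to 153.1 to 163.87 TPM, with *TIP2;3* higher and *IRT1* lower in WL+FR, and their part was not tested.

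In the libraries labelled *wox4*, *GI*, *ELF4* and *LUX* were higher in WL+FR than in WL, 3 of 10 called, where 15.4% of all tested genes were called higher, 3.44% lower and 18.8% in either direction. The replicates of 8 did not overlap, against 58.8% of all genes. *GI* rose from 19.8 and 19.6 TPM to 32.4 and 32.1 TPM (log2 fold change 0.68 ± 0.07, SE, limma adjusted p = 0.000117), the highest *GI* values of all 12 libraries. *LUX* rose from 91.6 and 90.4 TPM to 121 and 120.1 TPM (0.40, adjusted p = 0.000669), again the highest of all libraries. *ELF4* rose from 343 and 383 TPM to 454 and 451 TPM (0.32, adjusted p = 0.0146), a call lost without replicate 5, 7 or 8. Without replicate 5 or 7, only *GI* and *LUX* were called. *LHY*, at 32.0 and 32.1 TPM in WL and 30.0 and 28.6 TPM in WL+FR, had separate replicates and a log2 fold change of -0.13 (adjusted p = 0.313), and passed the test as lower under quantile normalization. The root marker sum here went from 167.01 to 172.53 TPM in WL to 273.27 to 289.94 TPM in WL+FR and the xylem sum from 114.47 to 122.24 TPM to 159.37 to 162.95 TPM, and their part was not tested.

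Against Col-0, the libraries labelled *wox4* gave no called clock gene in either light. In WL 0.265% of all tested genes were called, none of the 10 clock genes had an unadjusted p under 0.05 in limma (9.26% of all genes did), and their log2 fold changes ran from -0.05 to 0.20 with a median of 0.07. In WL+FR 1.05% of all tested genes were called, 1 clock gene had an unadjusted p under 0.05 (14.5% of all genes did), and the log2 fold changes ran from -0.16 to 0.16. The difference of shade responses was called for none of the 10, against 0.105% of all tested genes, and none had an unadjusted p under 0.05, against 6.93%, although the 4 morning genes were again negative and the 4 evening genes positive. No clock gene was called in these 3 comparisons under any of the 19 alternatives. Of the other lists described next, *GRP7* alone was called, higher by 0.20 in WL+FR (limma adjusted p = 0.0495), and this call held under 2 of the 19.

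A wider list of 39 other clock genes was examined as well, 35 of which passed the filter, while *RVE3*, *RVE5* and *LWD2* were listed at 0 in all 12 libraries and *PRMT5* was too low. In WL, 2 of them were lower in *rev-5* than in Col-0 and none was higher, a share of the 35 near that of all tested genes (4.67% called). *FKF1*, an F-box blue light receptor that acts with *GI*, stood at 29.4 and 29.0 TPM in *rev-5* and 45.1 and 44.0 TPM in Col-0 (log2 fold change -0.59, limma adjusted p = 0.00328). *JMJ30*, a histone demethylase of the clock with an evening peak, stood at 51.9 and 49.2 TPM against 66.9 and 62.0 TPM (-0.34, adjusted p = 0.0324). *FKF1* kept its call under all 19 alternatives and *JMJ30* under 8. The call of *JMJ30* was lost without Col-0 replicate 1, 2, 3 or 4 or *rev-5* replicate 9, 10, 11 or 12. *ELF3*, the scaffold of the evening complex, differed by -0.05 (adjusted p = 0.775), the *RVE8* relatives *RVE4* and *RVE6* by 0.16 (0.69) and 0.01 (0.994), the coactivators *LNK1* and *LNK2* by 0.27 (0.212) and 0.20 (0.352), and the F-box receptor *ZTL* by -0.08 (0.531), with adjusted p in parentheses. The median over the 35 genes was -0.09.

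Among 13 clock output genes, 2 were higher (2.61% of all tested genes were) and 2 lower (2.06%) in *rev-5* than in Col-0 in WL, and their median was 0.02. Of the 10 morning outputs, 7 had a positive log2 fold change and 3 a negative one, down to -0.19. Of the 3 evening outputs, 2 were negative and 1 was positive (0.005). The catalase genes *CAT2* and *CAT3* are a known pair of opposite phase. *CAT2*, with a morning peak, stood at 419 and 415 TPM in *rev-5* and 305 and 316 TPM in Col-0 (0.43, limma adjusted p = 6.49e-05), and *CAT3*, with an evening peak, at 831 and 803 TPM against 1204 and 1172 TPM (-0.54, adjusted p = 8.59e-06). The ratio of *CAT2* to *CAT3* was 0.505 and 0.517 in *rev-5* in WL, 0.434 and 0.437 in *rev-5* in WL+FR, and 0.253 to 0.336 in the other 8 libraries. *GRP7*, an RNA-binding protein with an evening peak, stood at 2246 and 2305 TPM in *rev-5* and 3060.0 and 3054 TPM in Col-0 (-0.43, adjusted p = 0.00041). *COL2*, a morning-phased relative of *CONSTANS*, was higher by 0.41 (adjusted p = 0.0185), a call lost without Col-0 replicate 2 or *rev-5* replicate 9 or 10, whereas *CAT2*, *CAT3* and *GRP7* held under all 19 alternatives. In WL+FR, *CAT2* was higher by 0.18 (adjusted p = 0.0114) and *CAT3* lower (-0.21, adjusted p = 0.00416), and no other gene of either list was called. The call of *CAT2* in WL+FR was lost without Col-0 replicate 3 or 4 or *rev-5* replicate 12.

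The shade response of Col-0 took in 9 of the 35 wider genes, 6 higher (13.3% of all tested genes were) and 3 lower (4.41%). *LNK1*, a coactivator that works with RVE8, rose from 16.7 and 14.7 TPM to 28.3 and 31.0 TPM (0.88, limma adjusted p = 0.000461), with *LNK4* (0.85), the MYB-like *RVE1* (0.65) and *RVE2* (0.28), the *LUX* homologue *BOA* (0.36) and *TCP22* (0.31), an activator of *CCA1*, also higher. *FKF1* fell from 45.1 and 44.0 TPM to 23.5 and 25.1 TPM (-0.85, adjusted p = 9.79e-05), and *JMJ30* (-0.64) and *COR28* (-0.46) fell too. *RVE4* (0.09), *RVE6* (0.11), *LNK2* (0.09), *ELF3* (0.04) and *ZTL* (0.15) did not pass in Col-0. *LNK4* lost its call without Col-0 replicate 2, 3 or 4, *RVE2* without replicate 2 or 4, *BOA* without replicate 2 or 3, and *COR28* whichever of the 4 Col-0 libraries was left out. Quantile normalization gave 4 higher and 5 lower. Under that normalization the log2 fold changes of *RVE4*, *LNK2* and *ELF3* in Col-0 were negative. *ELF3* was called higher under shade in *rev-5* (0.25, limma adjusted p = 0.047) and in the libraries labelled *wox4* (0.25, adjusted p = 0.0375). These calls held under 4 and 8 of the 19 alternatives. *ZTL* was called higher in *rev-5* (0.20, limma adjusted p = 0.0468), which held under 4. In *rev-5* 9 of the wider genes were higher and 2 lower, against 11% and 2.83% of all tested genes, and in the libraries labelled *wox4* 10 and 2, against 15.4% and 3.44%, with *LNK1*, *RVE1*, *RVE2*, *BOA* and *TCP22* higher and *FKF1* and *JMJ30* lower in each. In *rev-5* a fit of its own 4 libraries called none of the wider genes, quantile normalization called 4 higher and 2 lower, and 5 were higher and 0 lower without replicate 9, 10 or 11, and 4 were higher and 1 lower without replicate 12. In the libraries labelled *wox4*, 5 were higher and 1 lower in a fit of these libraries alone, 3 were higher and 3 lower under quantile normalization, and 6 were higher without replicate 5 and 5 without replicate 8.

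Of the 13 output genes, 6 were higher and 2 lower under shade in Col-0, against 13.3% and 4.41% of all tested genes. The CYCLING DOF FACTOR genes are morning-phased repressors of *CONSTANS* that FKF1 and GI remove, and the 4 in the list were higher. *CDF5* rose from 4.48 and 2.57 TPM to 19.4 and 24.1 TPM (log2 fold change 2.36, limma adjusted p = 7.34e-05), *CDF2* from 21.8 and 21.9 TPM to 44.3 and 42.7 TPM (0.96, adjusted p = 2.25e-05), *CDF1* by 0.79 and *CDF3* by 0.69. *PIF5*, a growth-promoting bHLH factor, rose by 0.47 and *CAT2* by 0.31. *GRP7* fell from 3060.0 and 3054 TPM to 1649 and 1799 TPM (-0.83, adjusted p = 1.17e-06), and *GRP8* fell by 0.22 in log2 (adjusted p = 0.01), a call lost without Col-0 replicate 2 or 3. These 4 *CDF* genes and *PIF5* were higher in *rev-5* and in the libraries labelled *wox4* too, with *CDF5* at 2.1 and 1.93, and *GRP7* was lower there, at -0.40 and -0.57. In all there were 6 higher and 1 lower in *rev-5* (11% and 2.83% of all tested genes) and 8 and 1 in the libraries labelled *wox4* (15.4% and 3.44%). Among the higher ones was *CAT3*, an evening output, in *rev-5* (0.30, limma adjusted p = 0.000137) and in the libraries labelled *wox4* (0.15, adjusted p = 0.00653). It was not called in Col-0.

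**Figure D5:**
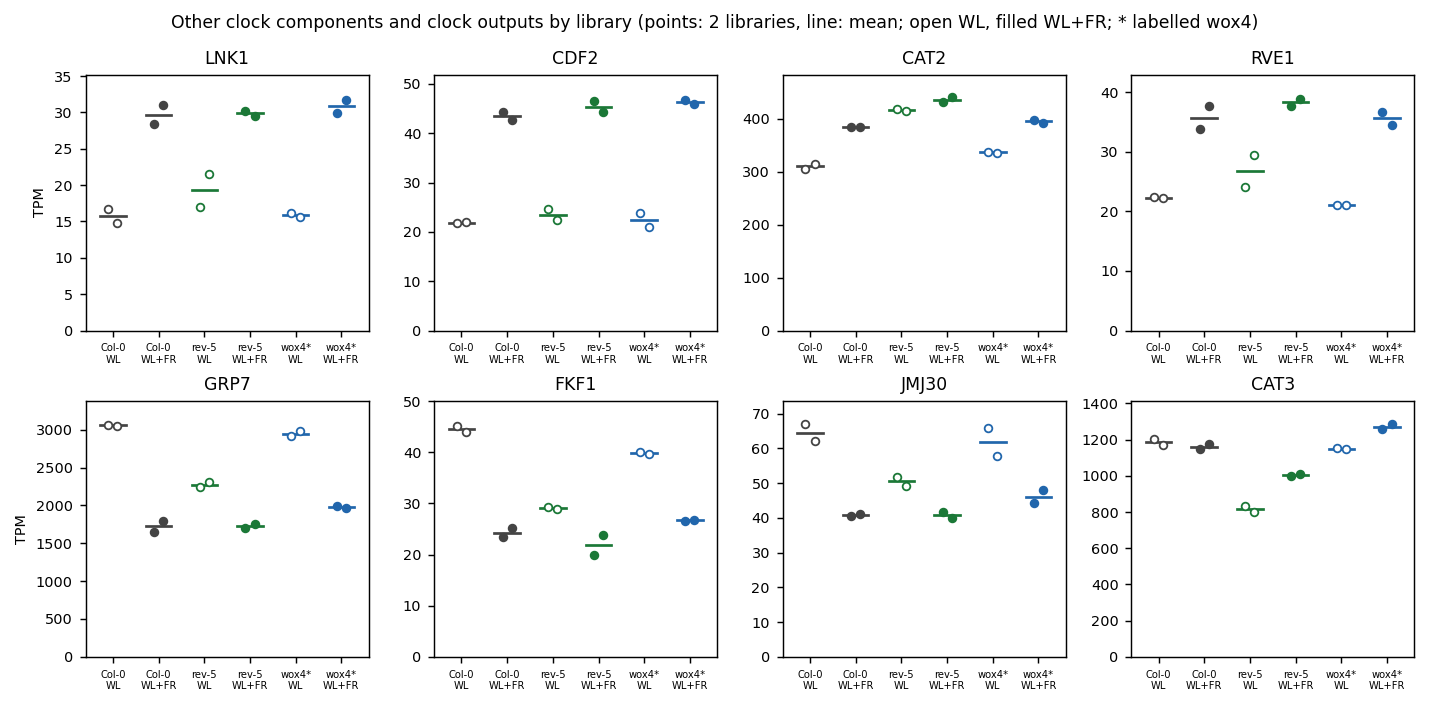
TPM of 4 genes with higher values in WL+FR or in *rev-5* (*LNK1*, *CDF2*, *CAT2*, *RVE1*) and of 4 genes with lower ones (*GRP7*, *FKF1*, *JMJ30*, *CAT3*) in the 12 libraries, with open points for WL, filled points for WL+FR and a line at the group mean. In WL, *CAT3* stands near 817 TPM in *rev-5* and near 1188 TPM in Col-0, and *FKF1* at 29.2 against 44.5 TPM. Within *rev-5* and within the libraries labelled *wox4*, *CAT3* is higher in WL+FR than in WL.

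Over the 12 libraries the clock genes fell into groups that ran together, which is a description of libraries that share 6 group means. *GI* ran with *LUX* (Pearson r = 0.94) and *ELF4* (0.93), *LUX* with *PRR5* (0.89), *CCA1* with *RVE8* (0.87) and *TOC1* with *PRR7* (0.83), all on log2(TPM + 1). *LHY* ran against *LUX* (-0.78), *TOC1* (-0.77) and *PRR5* (-0.73), and only weakly with *CCA1* (0.24). Among 18788 genes above 0 in all libraries, those most like *CCA1* were AT5G65600 (listed as LECRK92, r = 0.95), AT4G37520 (PER50, 0.93), AT2G36800 (UGT73C5, 0.93), *GLR2.5* (0.93) and AT1G79520 (0.93). Those most like *TOC1* were AT1G19170 (0.92), AT5G51300 (SF1, 0.90), AT4G37560 (0.89), AT2G34380 (SEI3, 0.89) and AT5G62350 (0.89). No clock gene of either list was among these 10.

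The spread between replicates differed among the clock genes, and its part in the calls was not tested. The residual SD of log2(TPM + 1) was 0.04 for *GI* and 0.05 for *LUX*, and 0.13 for *RVE8*, the widest of the 10. Only 2.7% of genes of similar level varied less between replicates than *GI*, whereas 90.3% of genes near its level varied less than *ELF4*, with 0.09. The Col-0 libraries in WL+FR differed from each other by 0.39 in log2 for *RVE8*, 0.30 for *PRR7* and 0.24 for *CCA1*. No clock gene passed an absolute log2 fold change over 1 with an adjusted p under 0.01 in any of the 9 comparisons. Of all tested genes, 1.7% passed it for the shade response of Col-0, 1.03% for that of *rev-5* and 1.56% for that of the libraries labelled *wox4*, 0.32% and 0.29% in *rev-5* against Col-0 in WL and WL+FR, 0.0749% and 0.0699% in the libraries labelled *wox4* against Col-0, and 0.11% and 0.0649% in the differences of shade responses.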

How the data were processed

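The authors deposited 1 table of FPKM values per library, with a lower and an upper bound for each gene. The paper's methods state paired reads aligned to TAIR10 with HISAT2, while the submitters' processing notes list FastQC, Bowtie2 and Cufflinks without versions, so the aligner behind the FPKM is uncertain. The study's own tests used counts, which were not used here. TPM were obtained by scaling the FPKM of a library to a common total. Genotype, light and replicate number came from the labels, and light durations and ratios from the paper. limma 3.58.1 (R 4.3.3) was fitted to log2(TPM + 1) with 1 mean for each of the 6 groups and a trend in the spread, for 20020 genes whose mean reached 0.5 TPM, and p values were adjusted over all of them. Fold changes on this scale understate changes of low genes.

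All 10 clock genes are named. From the wider list (39 genes) and the output list (13) counts are given, with genes that passed the test in the comparison described, at most 6 each way, and *ELF3*, *RVE4*, *RVE6*, *LNK1*, *LNK2*, *ZTL* and *FKF1* always. For *CCA1* and *TOC1* the 5 genes of highest Pearson r are named. The members, the lists and the markers were chosen with earlier results of these data known. The fit was tested on simulated data with planted changes larger than any found for the clock genes. That test does not show how often changes of their size are found. Values listed at 0 can be failed estimates. Counting on strand is not given in the sources used here. Alternatives were a pseudocount of 0.1, no filter, genes above 0 in all libraries, FPKM, quantile normalization, limma without trend, fits of the compared groups, other thresholds and leaving out each library in turn. Sequences came from TAIR10.1, where 32519 of 32538 matched genes have the same start and end. Python 3.11.15, pandas 2.3.3, numpy 2.4.6 and matplotlib 3.10.9 were used. A double mutant was not analysed here.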

Additional observations from a re-analysis of the deposited data

Results flagged for a closer look

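The shade response of *CAT3* differed between *rev-5* and Col-0 by 0.33 in log2 (limma adjusted p = 0.00806), as a tested difference of the 2 responses. *CAT3* stood at 831 and 803 TPM in WL and 997 and 1010.0 TPM in WL+FR in *rev-5*, where all values were lower than the 1204 and 1172 TPM in WL and 1147 and 1177 TPM in WL+FR of Col-0. The response of *GRP7* differed by 0.43 (limma adjusted p = 0.00999), with a fall from 3060.0 and 3054 TPM to 1649 and 1799 TPM in Col-0 and from 2246 and 2305 TPM to 1702 and 1759 TPM in *rev-5*. The WL+FR levels of *GRP7* overlapped between the genotypes and the WL levels did not. The *GRP7* call was lost without Col-0 replicate 1 (adjusted p = 0.0517), *rev-5* replicate 9 (0.0606) or *rev-5* replicate 12 (0.0564), and both calls were lost with no filter on low values, without a trend in the spread, and in a fit of the compared groups alone. Of the 10 clock genes none met the same test. Groups of 2 libraries were too small to look for outlying samples.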

How the results depend on the processing

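Called clock genes kept their sign under all 19 alternative fits. Fits that change only the filter, the trend or libraries outside the compared groups cannot alter a log2 fold change, so they do not test its sign. In Col-0 the 5 shade calls became 3 with no filter, 3 with quantile normalization, 2 in a fit of the Col-0 libraries alone, 3 at an adjusted p under 0.01, and 2 to 5 when 1 library was left out. The 5 shade calls of *rev-5* became 2 in a fit of that genotype alone, and 4 to 6 with 1 library left out, and the 3 of the libraries labelled *wox4* 2 to 4. The 4 calls of *rev-5* against Col-0 in WL became 1 without a trend, 0 in a fit of these groups alone, 1 at an adjusted p under 0.01 and 1 to 4 with 1 library left out, and the 0 calls in WL+FR 0 to 2. An absolute log2 fold change over 1 with an adjusted p under 0.01 left 0 in each. A library whose partner was left out was assumed to vary like the other groups, and the fits of fewer groups rest on fewer libraries. Quantile normalization moved the calls over all genes from 2210 higher and 567 lower to 1061 and 1041 in *rev-5*, and from 3074 and 689 to 1373 and 1281 in the libraries labelled *wox4*.

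Uncalled log2 fold changes near 0 changed sign, and the cause was not tested. With 1 library left out, the shade response of Col-0 ran from -0.0974 to 0.0266 for *LHY*, -0.18 to 0.13 for *PRR7*, -0.0865 to 0.0806 for *TOC1*, -0.0387 to 0.22 for *RVE4*, -0.0173 to 0.23 for *RVE6*, -0.0938 to 0.28 for *LNK2* and -0.0449 to 0.12 for *ELF3*, and that of *TOC1* in the libraries labelled *wox4* from -0.0107 to 0.0485. In the same way *rev-5* minus Col-0 in WL+FR ran from -0.0510 to 0.0700 for *PRR9*, -0.0976 to 0.21 for *PRR7*, -0.0697 to 0.0974 for *TOC1*, -0.11 to 0.0139 for *GI* and -0.0548 to 0.12 for *ELF4*, and in WL from -0.12 to 0.45 for *RVE4* and -0.12 to 0.13 for *RVE6*. Quantile normalization gave shade responses of -0.0330 for *PRR5* in *rev-5*, of -0.0590 for *PRR7*, -0.0700 for *PRR5* and -0.13 for *TOC1* in the libraries labelled *wox4*, and of -0.0186 for *RVE4*, -0.0267 for *LNK2* and -0.0882 for *ELF3* in Col-0, and -0.0018 for *RVE6* (*rev-5* minus Col-0, WL) and -0.0373 for *PRR9* (WL+FR). FPKM in place of TPM gave -0.0322 for the shade response of *TOC1* in the libraries labelled *wox4*, and -0.0033 for *PRR9* and -0.0014 for *TOC1* in *rev-5* minus Col-0 in WL+FR. No paired analysis was made, because the labels number the libraries in series and give no pairing between groups. Groups of 2 libraries, a single age at harvest, an unknown hour of harvest and fragment numbers reckoned only from the bounds limit what differences could be detected.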
